A study of Mus musculus with 12 samples.

Results

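The mouse liver genes for serum amyloid A (*Saa1*, *Saa2*, *Saa3* and *Saa4*), orosomucoid (*Orm1* and *Orm2*), lipocalin 2 (*Lcn2*), haptoglobin (*Hp*), hemopexin (*Hpx*) and the signalling inhibitor SOCS3 (*Socs3*) are described here. These 10 genes were found by symbol among the 38926 gene symbols counted in each of 12 livers, and all 10 passed the filter on low counts. They were chosen by their read counts in the wild-type group at ZT8 (8 h after lights on in zeitgeber time, ZT), in which 2 of the 3 mice were high. Their values in that group, and every difference that includes that group, are therefore given as a description without a test.

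The study sequenced poly(A) RNA of 1 liver per mouse, from 12 males in 4 groups of 3, wild-type or *Rev-erbα-/-* and taken at ZT8 or at ZT20. *Rev-erbα-/-* mice lack functional REV-ERBα (gene *Nr1d1*), a nuclear receptor that represses transcription within the circadian clock. The deletion is inherited through the germline from heterozygous parents, so it is not restricted to the liver or to hepatocytes. Mice of all 4 groups were on a 129Ola/C57BL6 background, 12 weeks old by the labels, kept in 12 h light and 12 h dark with free access to food, and their labels name no treatment. The labels give the 3 wild-type ZT8 mice the same genotype, age and time point.

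These genes belong to the acute-phase response. Cytokines such as interleukin-6 and interleukin-1, released for instance by macrophages after infection or injury, act on hepatocytes through STAT3, NF-κB and C/EBP factors, and the liver then makes more of a set of plasma proteins (positive acute-phase proteins) and less of others, such as albumin (negative ones). SAA1 and SAA2 are the inducible serum amyloids carried on high-density lipoprotein, SAA3 is made by many tissues as well as liver, and SAA4 is the constitutive member. Orosomucoid is a carrier of small molecules in plasma, lipocalin 2 binds bacterial iron carriers, haptoglobin binds free haemoglobin and hemopexin binds free haem. SOCS3 is a feedback inhibitor of interleukin-6 signalling.

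In the mm10 annotation (GENCODE M21), the serum amyloid genes lie together on chromosome 7 within 42316 bases, *Saa3* at 46711998 to 46715700, *Saa4* at 46727998 to 46732603, *Saa1* at 46740497 to 46742980 and *Saa2* at 46751790 to 46754313. *Saa1* and *Saa2* point away from each other, with 8809 bases between them. *Orm1* (chromosome 4, 63344560 to 63348163) and *Orm2* (63362449 to 63365878) are neighbours on the same strand. *Lcn2* is on chromosome 2 (32384633 to 32388252), *Hp* on chromosome 8 (109575128 to 109579172), *Hpx* on chromosome 7 (105591613 to 105600137) and *Socs3* on chromosome 11 (117966079 to 117970047). All 10 are protein-coding genes, and the counts cover all of their exons together.

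The upstream sequences of *Saa1* and *Saa2* are shown because these neighbours reached almost equal levels in the high mice, those of *Saa3*, *Orm2* and *Lcn2* because they rank next in their spread, and that of *Saa4* because it was the serum amyloid gene without the pattern. Each is the 250 bases before the RefSeq transcription start (GRCm38.p6, the build of mm10), written on the gene's own strand, and capitals mark matches to the letters of the C/EBP motif on either strand. The coordinates are chr7:46742981-46743230 for *Saa1* (minus strand), chr7:46751583-46751832 for *Saa2* (plus), chr7:46715677-46715926 for *Saa3* (minus), chr4:63362199-63362448 for *Orm2* (plus), chr2:32387740-32387989 for *Lcn2* (minus) and chr7:46732604-46732853 for *Saa4* (minus).
Saa1: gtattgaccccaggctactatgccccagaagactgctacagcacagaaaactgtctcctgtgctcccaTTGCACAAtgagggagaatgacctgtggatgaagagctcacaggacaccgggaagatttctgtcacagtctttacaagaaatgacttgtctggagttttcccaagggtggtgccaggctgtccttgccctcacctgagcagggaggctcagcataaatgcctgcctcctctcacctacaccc
Saa2: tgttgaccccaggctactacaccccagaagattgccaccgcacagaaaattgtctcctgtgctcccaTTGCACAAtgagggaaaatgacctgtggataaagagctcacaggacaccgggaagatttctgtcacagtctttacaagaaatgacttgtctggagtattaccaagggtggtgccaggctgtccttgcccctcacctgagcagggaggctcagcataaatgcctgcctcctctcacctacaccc
Saa3: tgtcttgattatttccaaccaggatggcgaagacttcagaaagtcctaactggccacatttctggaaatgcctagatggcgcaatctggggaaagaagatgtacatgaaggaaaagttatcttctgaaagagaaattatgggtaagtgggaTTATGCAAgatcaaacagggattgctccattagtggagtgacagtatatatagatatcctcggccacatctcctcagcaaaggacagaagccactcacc
Orm2: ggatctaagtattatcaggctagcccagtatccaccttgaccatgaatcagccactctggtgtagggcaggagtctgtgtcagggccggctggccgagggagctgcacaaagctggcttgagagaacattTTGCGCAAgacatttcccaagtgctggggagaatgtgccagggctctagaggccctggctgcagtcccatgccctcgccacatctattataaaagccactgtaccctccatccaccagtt
Lcn2: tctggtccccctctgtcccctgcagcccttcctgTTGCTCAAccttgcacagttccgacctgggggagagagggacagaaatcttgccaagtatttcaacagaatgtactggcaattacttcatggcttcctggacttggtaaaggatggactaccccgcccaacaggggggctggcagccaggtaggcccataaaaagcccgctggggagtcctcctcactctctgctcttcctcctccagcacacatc
Saa4: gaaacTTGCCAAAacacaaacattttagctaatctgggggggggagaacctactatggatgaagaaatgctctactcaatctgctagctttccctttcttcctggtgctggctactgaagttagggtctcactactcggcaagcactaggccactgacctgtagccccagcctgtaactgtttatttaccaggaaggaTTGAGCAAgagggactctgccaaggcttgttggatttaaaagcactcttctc

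RefSeq promoters (250 bases before and 50 after the start) were matched for 8 of the 10 genes, all but *Orm1* and *Hp*. In a global alignment, the *Saa1* and *Saa2* promoters were identical at 287 of 301 columns (95.3%), whereas the other pairs among the 8 were identical at 45.5% to 54.2%. The C/EBP motif TTGCNNAA, searched on both strands, was present in 7 of the 8, all but *Socs3*, and in 10.8% of the 32851 promoters in the table. It begins 182 bases before the start in *Saa1*, 183 in *Saa2*, 99 in *Saa3*, 120 in *Orm2*, 216 in *Lcn2* and 200 in *Hpx*, and *Saa4* has 2 matches. The STAT motif TTCNNNGAA was present in *Socs3* alone (8.3% of all promoters), the NF-κB motif GGANTTTCC in none of the 8 (1.25%) and the nuclear receptor half-site AGGTCA in 4, *Saa1*, *Saa2*, *Saa4* and *Hpx* (16.3%). A match of letters is a description and not a binding site. Each motif was searched in 1 form of its letters, so the lack of a match does not show the lack of a site.

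The serum amyloid genes *Saa1* and *Saa2* had the widest spread. Levels are given as CPM, the counts divided by the library size in units of 1e+06 reads after TMM scaling. *Saa1* was at 60.7 CPM in wild-type ZT8 mouse 1, 4969 in mouse 2 and 6485 in mouse 3. The *Rev-erbα-/-* livers at ZT8 held 29.0, 36.4 and 37.8, those of wild-type at ZT20 held 96.8, 73.2 and 36.4, and those of *Rev-erbα-/-* at ZT20 held 30.5, 32.8 and 21.2. Mice 2 and 3 were thus far above all other livers, while mouse 1 lay within the range of the 9 livers of the other groups. The lower of the high values was 51.4 times the highest of these 9 livers.

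*Saa2* reached 13.6, 4846 and 6133 CPM in the same 3 mice, with a highest value of 17.2 in the other groups. Its values were 7.68, 9.50 and 12.2 in *Rev-erbα-/-* at ZT8, 17.2, 10.9 and 6.89 in wild-type at ZT20, and 7.05, 9.31 and 4.40 in *Rev-erbα-/-* at ZT20. The reads behind these levels numbered 343, 97329 and 120707 in the wild-type ZT8 mice, and between 99 and 369 in the other livers, so that counting error is small beside the spread. *Saa3* showed the same order at a lower level, with 2.82, 50.7 and 61.9 CPM in wild-type ZT8 mice 1 to 3 and between 1.60 and 2.99 in the other groups (from 29 to 70 reads). *Saa1* and *Saa2* share part of their sequence, so that 471 stretches of 75 bases occur in both genes. These are 18.5% and 17.8% of the stretches in all annotated transcripts of each gene pooled. Reads from such stretches map to more than 1 place and were not counted. The share within the main spliced transcript was not determined and can be larger, so the share of reads lost is not known.

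*Saa4*, the constitutive family member, did not share the pattern. In wild-type ZT8 mice 1 to 3 its level was 537.8, 503.8 and 475.8 CPM, and mouse 1 had the highest level. *Rev-erbα-/-* livers held 339.5, 360.5 and 289.9 at ZT8 and 252.6, 299 and 383.2 at ZT20, and wild-type livers at ZT20 held 448.9, 448.8 and 434.3. The lowest of the 6 wild-type livers (434.3) was above the highest of the 6 *Rev-erbα-/-* livers (383.2). This description includes the wild-type ZT8 livers, and the share of all genes that separate in this way was not counted.

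The orosomucoid genes were both above the other groups in mice 2 and 3, by different factors. *Orm2* levels were 9.51, 312.6 and 424.6 CPM in wild-type ZT8 mice 1 to 3 and between 6.80 and 9.60 in the 9 other livers. *Orm1*, already abundant, was at 593, 1364 and 1757 CPM in these mice, against 463.5, 547 and 527.5 in *Rev-erbα-/-* at ZT8, 624.5, 613 and 576 in wild-type at ZT20 and 619.7, 587 and 609.5 in *Rev-erbα-/-* at ZT20. The lower of its high values was 2.18 times the highest of the 9 other livers, whereas for *Orm2* it was 32.6 times. *Orm1* and *Orm2* share 13.8% and 14.0% of their 75-base stretches.

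*Lcn2*, which encodes the iron-carrier binding lipocalin 2, was at 3.30 CPM in wild-type ZT8 mouse 1, 307 in mouse 2 and 393 in mouse 3. It was at 2.44, 3.22 and 4.99 in *Rev-erbα-/-* at ZT8, 6.88, 5.57 and 2.64 in wild-type at ZT20 and 3.31, 2.77 and 2.58 in *Rev-erbα-/-* at ZT20. The lower of its high values was 44.6 times the highest of these 9 livers, and mouse 1 lay in the middle of them, above 5 of 9.

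Of the genes for plasma scavengers, *Hp* stood at 1943, 6312 and 7980 CPM in wild-type ZT8 mice 1 to 3. The other groups held 1657, 1670 and 1746 in *Rev-erbα-/-* at ZT8, 2447, 2142 and 2383 in wild-type at ZT20 and 2515, 2332 and 2200 in *Rev-erbα-/-* at ZT20. *Hpx* stood at 3072, 7575 and 9956 CPM in the same mice and between 2850 and 3789 in the other groups. The lower of the high values was 2.51 times the highest of the 9 other livers for *Hp* and 2.00 times for *Hpx*, while mouse 1 was within their range.

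*Socs3*, the inhibitor of the signalling cascade, was at 7.95, 23.3 and 29.8 CPM in wild-type ZT8 mice 1 to 3. The other groups held 8.31, 7.27 and 8.32 (*Rev-erbα-/-*, ZT8), 5.39, 6.72 and 6.26 (wild-type, ZT20) and 17.0, 11.5 and 5.07 (*Rev-erbα-/-*, ZT20). Mice 2 and 3 were again the highest, but by 1.38 times at least, since mouse 1 of the *Rev-erbα-/-* group at ZT20 was also high.

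**Figure D1:**
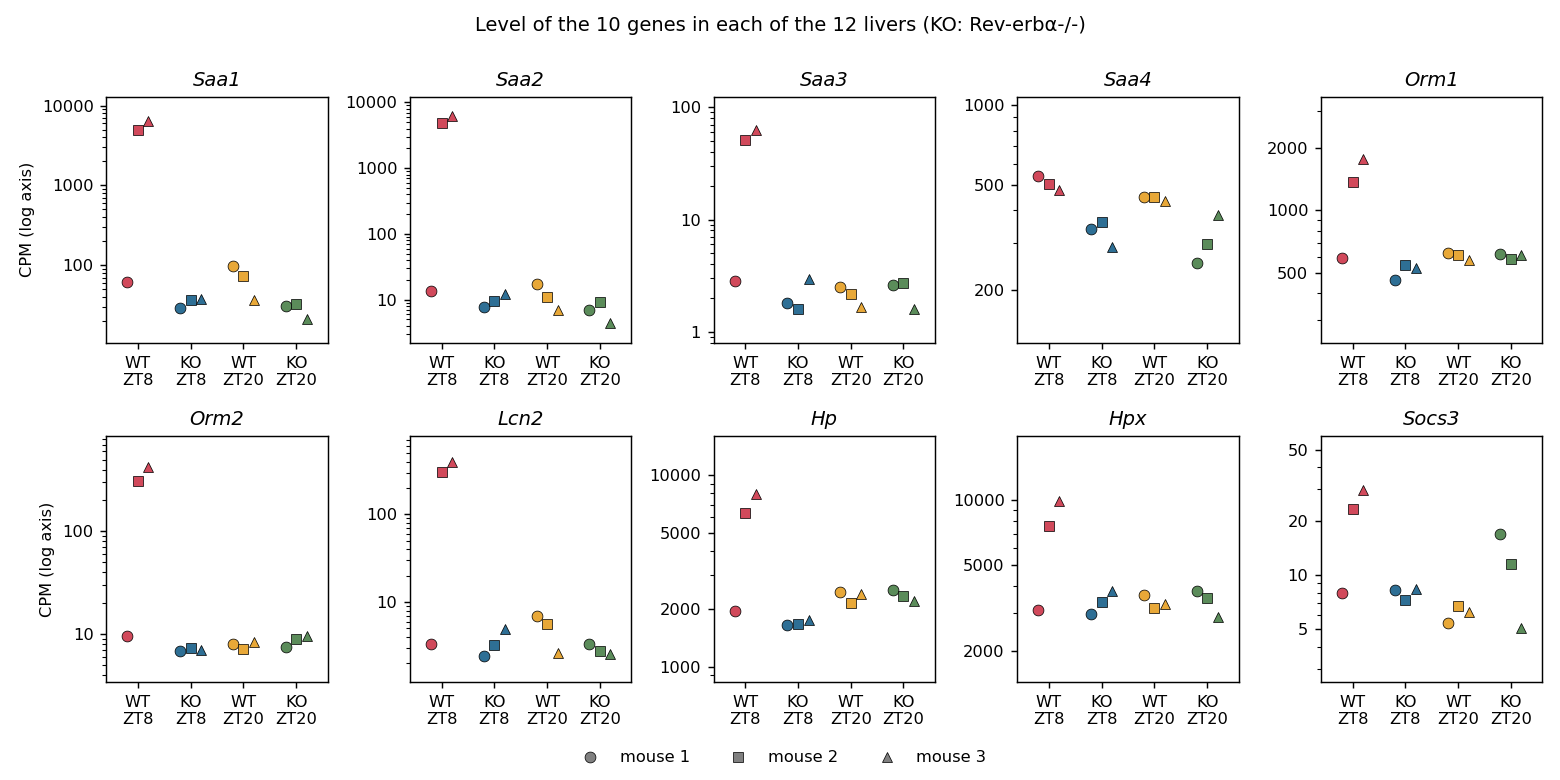
Level of each of the 10 genes (CPM, log axis, 1 panel per gene) in the 3 livers of each group, with circles, squares and triangles for mice 1, 2 and 3. Mice 2 and 3 of wild-type ZT8 stand above all other livers in 9 panels, with *Saa1* at 4969 and 6485 CPM, and *Saa4* is the exception.

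The spread within the group was taken as the highest over the lowest of the 3 mice after adding 0.5 CPM. In wild-type ZT8 it was 433.7-fold for *Saa2*, 105.9-fold for *Saa1*, 103.5-fold for *Lcn2*, 42.5-fold for *Orm2*, 18.8-fold for *Saa3* and 4.11-fold for *Hp*. These 6 of 10 genes were at or above a range of 4-fold, which 0.67% of the 14488 genes measured in the 12 livers reached, and this was the property for which they were chosen. *Socs3* (3.58-fold), *Hpx* (3.24-fold) and *Orm1* (2.96-fold) lay just under it, and *Saa4* was at 1.13-fold. In *Rev-erbα-/-* at ZT8, wild-type at ZT20 and *Rev-erbα-/-* at ZT20, 0 of 10 reached 4-fold, beside 0.276%, 0.117% and 0.345% of all genes. The widest ranges there were 1.87-fold (*Lcn2*), 2.63-fold (*Saa1*) and 3.14-fold (*Socs3*).

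Mice 2 and 3 differed little from each other. Mouse 3 was above mouse 2 for 9 of the genes, by a ratio between 1.22 (*Saa3*) and 1.36 (*Orm2*), and below it for *Saa4* (0.944). For the same 9 genes, mice 2 and 3 were the 2 highest of the 12 livers, the pattern for which the genes were chosen. Across all genes, mice 2 and 3 were the 2 highest for 1296, or 8.95%, and the 2 lowest for 1207. The livers thus stood apart in many genes and in both directions. Of the 97 genes with a range of at least 4-fold in wild-type ZT8, both mice were above mouse 1 in 61 and below it in 36. The part of a general difference between these livers in the levels of the 10 genes was not tested.

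**Figure D2:**
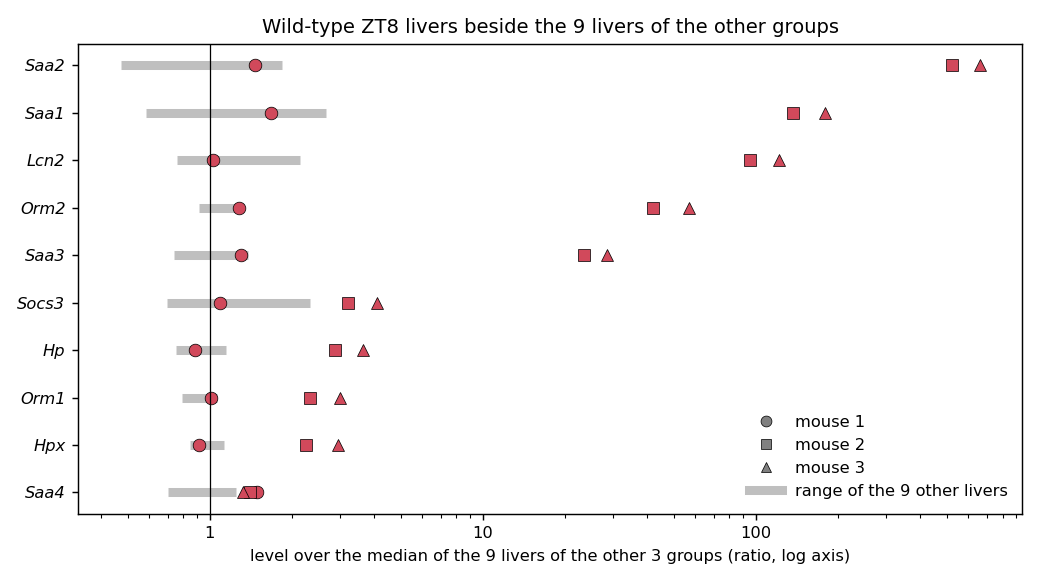
Level of each gene in the 3 wild-type ZT8 livers as a ratio to the median of the 9 livers of the other groups (log axis), with a grey bar for the range of these 9. *Saa2* was 520.8 and 659 times the median in mice 2 and 3, *Orm1* 2.32 and 2.99 times, and mouse 1 was between 0.883 and 1.67 times it for all 10 genes.

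The 2 members of each neighbouring pair were raised in mice 2 and 3 by different factors, which shows in their ratio within a liver. In the 9 livers of the other groups, *Saa1* had between 3.09 and 6.70 times as many reads as *Saa2* (median 4.33), and in wild-type ZT8 mouse 1 it had 4.45 times as many. In mouse 2 the ratio was 1.03 and in mouse 3 it was 1.06. Both genes have nearly the same total exonic length (2478 and 2518 bases). Reads from stretches that occur in both were not counted, and the lengths that remain were not compared. The values are thus ratios of counted reads and not of transcripts. *Orm1* had between 63.5 and 85.6 times the reads of *Orm2* in the 9 other livers and 62.4 times in mouse 1, but 4.36 and 4.14 times in mice 2 and 3. The annotated exons of *Orm1* and *Orm2* have the same length, 775 bases. For both pairs, the gene that was lower in the other livers had the larger factor.

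**Figure D3:**
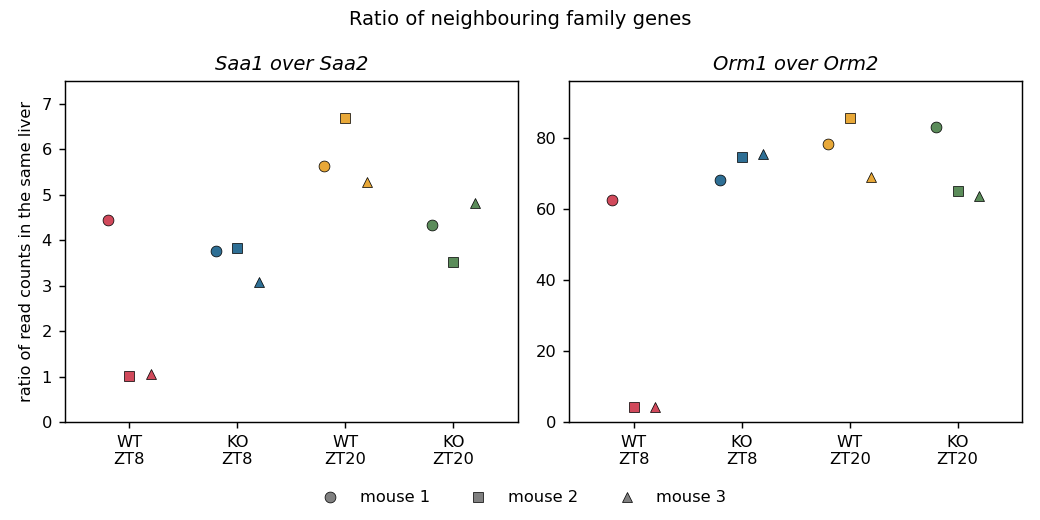
Ratio of the read counts of *Saa1* to *Saa2* (left) and of *Orm1* to *Orm2* (right) in each liver, by group, on axes that start at 0. Mice 2 and 3 of wild-type ZT8 lie at 1.03 and 1.06 and at 4.36 and 4.14, below all other livers.

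The order of the genes by level, compared per kilobase (kb) of exon, also differed. The length used was that of all annotated exons together, which for *Saa1* (2478 bases) and *Saa2* (2518 bases) is nearly the whole gene. A shorter length, such as that of a spliced transcript, would raise a gene's value per kb, so the order depends on the length used. In *Rev-erbα-/-* liver at ZT8, the order was *Hpx* (2244 ± 276 CPM per kb, SD, n = 3), *Hp* (1053 ± 30.0), *Orm1* (661 ± 56.1), *Saa4* (158 ± 17.3), *Saa1* (13.9 ± 1.91), *Orm2* (9.09 ± 0.345), *Saa2* (3.89 ± 0.911), *Socs3* (2.76 ± 0.208), *Lcn2* (1.35 ± 0.499) and *Saa3* (0.820 ± 0.285). Neighbours in this order did not overlap between mice, except *Lcn2* and *Saa3*. In wild-type ZT8 mouse 2, *Saa1* (2005 CPM per kb) and *Saa2* (1925) came after *Hpx* (5053) and *Hp* (3930) and before *Orm1* (1760). Mouse 3 had the same order, with 2617 and 2436 CPM per kb for *Saa1* and *Saa2* and 2267 for *Orm1*. In mouse 1, *Saa1* was at 24.5 and *Saa2* at 5.42 CPM per kb. Together, *Saa1* and *Saa2* took 1.00% and 1.29% of all counted reads in mice 2 and 3, 0.0077% in mouse 1 and at most 0.0107% in the other livers.

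Because of this split, the mean of the wild-type ZT8 group describes none of its mice. For *Saa1*, it was 3838 ± 3358 CPM (SD, n = 3), against 34.4 ± 4.74 in *Rev-erbα-/-* at ZT8. As a description, the log2 difference of *Rev-erbα-/-* to wild-type at ZT8 was -6.80 for *Saa1*, -8.54 for *Saa2*, -4.15 for *Saa3*, -5.14 for *Orm2* and -6.03 for *Lcn2*. It was -1.27 for *Orm1*, -1.68 for *Hp*, -1.03 for *Hpx*, -1.34 for *Socs3* and -0.62 for *Saa4*. From ZT8 to ZT20 in wild-type, the differences were -5.80 (*Saa1*), -8.30 (*Saa2*), -4.18 (*Saa3*), -4.99 (*Orm2*), -5.54 (*Lcn2*), -1.03 (*Orm1*), -1.22 (*Hp*), -1.04 (*Hpx*), -1.72 (*Socs3*) and -0.19 (*Saa4*). Both sets share the wild-type ZT8 mice.

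When mouse 1 was taken alone, these differences were small. Its *Saa1* level was 1.77 times the mean of *Rev-erbα-/-* at ZT8 and 0.883 times that of wild-type at ZT20. For *Saa2* the ratios were 1.39 and 1.17, for *Saa3* 1.32 and 1.34, for *Orm1* 1.16 and 0.980, for *Orm2* 1.35 and 1.21, for *Lcn2* 0.930 and 0.656, for *Hp* 1.15 and 0.836, for *Hpx* 0.913 and 0.917, and for *Socs3* 0.999 and 1.30. *Saa4*, with ratios of 1.63 and 1.21, was the gene for which mouse 1 lay above all 9 other livers. Without mouse 1, the log2 difference to *Rev-erbα-/-* at ZT8 was -7.38 for *Saa1* and -9.13 for *Saa2*. No direction changed when any 1 of the 3 mice was left out. Each of these fits still held mouse 2 or mouse 3, so for the genes high in them this follows from the choice of genes.

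Comparisons without the wild-type ZT8 mice were tested in a fit of the 9 other livers (edgeR's quasi-likelihood test over 14267 genes, Benjamini-Hochberg adjustment, threshold 0.05). Between *Rev-erbα-/-* and wild-type at ZT20, none of the 10 genes passed, 0 higher and 0 lower, beside 2.36% of all genes higher and 1.72% lower. At an unadjusted p-value below 0.05 there were 0 higher and 3 lower, *Saa4*, *Saa1* and *Lcn2*, and DESeq2 on the same livers called 2 lower, *Saa1* and *Saa4*. The median log2 fold change was 0.0134 for the 10 genes and 0.00413 for all genes. For *Saa1*, wild-type livers held 68.8 ± 30.4 CPM at ZT20 and *Rev-erbα-/-* livers 28.2 ± 6.15 (SD, n = 3). The log2 fold change was -1.28 with a standard error (SE) of 0.365 and an adjusted p of 0.145 (edgeR). Its groups did not overlap, but the wild-type values ran from 36.4 to 96.8. Without wild-type ZT20 mouse 3, the lowest of them, *Saa1* stood at -1.58 on the log2 scale (adjusted p = 0.00585, edgeR), and over 16 alternatives the log2 fold change ran from -1.58 to -0.95 and the adjusted p from 0.00585 to 0.707, with 2 past the threshold.

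*Saa4* lay closest to the threshold, with 444 ± 8.39 CPM in wild-type livers at ZT20 against 311.6 ± 66.2 in those of *Rev-erbα-/-* mice (SD, n = 3). Its log2 fold change was -0.51 (SE 0.131, adjusted p = 0.0549, edgeR), and it passed in 5 of 16 alternatives, over which the log2 fold change ran from -0.68 to -0.38 and the adjusted p from 0.00177 to 0.199. *Lcn2* had a log2 fold change of -0.79 (SE 0.345, adjusted p = 0.304, edgeR) and passed without wild-type ZT20 mouse 3 (-1.10, adjusted p = 0.0295), 1 of 16 alternatives, over which its log2 fold change ran from -1.10 to -0.50 and the adjusted p up to 0.887. *Lcn2* is also a gene of neutrophil granules. Of the 3 neutrophil markers with enough reads for a test, 0 passed at ZT20 by edgeR, 3 were lower in *Rev-erbα-/-* at an unadjusted p-value below 0.05 and 2 by DESeq2, and the sum of all 12 markers was highest (12.8 CPM) in wild-type ZT20 mouse 3, in which *Lcn2* and *Saa1* were lowest of their group. Their part in the *Lcn2* difference was not tested. *Socs3* averaged 6.12 ± 0.673 CPM in wild-type against 11.2 ± 5.95 in *Rev-erbα-/-* livers (SD, n = 3), which is 0.87 on the log2 scale (SE 0.377, adjusted p = 0.323, edgeR). The *Socs3* values in *Rev-erbα-/-* (17.0, 11.5 and 5.07) overlapped those of wild-type. Without *Rev-erbα-/-* ZT20 mouse 3, *Socs3* stood at 1.22 (adjusted p = 0.000562, edgeR), the only alternative of 16 in which it passed (highest 0.567). Without mouse 1 of that group, its highest, *Socs3* stood at 0.45 (adjusted p = 0.567, edgeR).

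The remaining genes had log2 fold changes at ZT20 of -0.74 (SE 0.391, *Saa2*), 0.15 (SE 0.272, *Saa3*), 0.15 (SE 0.122, *Orm2*), 0.0066 (SE 0.0824, *Orm1*), 0.020 (SE 0.0910, *Hp*) and 0.020 (SE 0.123, *Hpx*), with adjusted p-values from 0.440 to 0.984 (edgeR). *Orm1*, *Hp* and *Hpx*, the abundant members, had the values nearest to 0. An adjusted p above the threshold does not show that the genotypes were equal.

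From ZT8 to ZT20 in *Rev-erbα-/-* liver, 1 of the 10 genes rose and 0 fell, beside 9.32% of all genes higher and 9.3% lower. At an unadjusted p-value below 0.05, 3 were higher (*Hp*, *Orm1* and *Orm2*) and 0 lower, and DESeq2 called 2 higher and 0 lower. The gene was *Hp*, which rose from 1691 ± 48.2 to 2349 ± 158 CPM (SD, n = 3), by 0.47 on the log2 scale (SE 0.0912, adjusted p = 0.00309, edgeR), without overlap between the groups. It passed in 15 of 16 alternatives. The exception was the fit of all 12 livers (log2 fold change 0.47, adjusted p = 0.467, edgeR), in which the spread of the wild-type ZT8 mice enters the error of the gene. *Orm1* (512.5 ± 43.5 against 605 ± 16.9 CPM) had a log2 fold change of 0.24 (SE 0.0825, adjusted p = 0.0619), and *Orm2* (7.04 ± 0.268 against 8.70 ± 1.10 CPM) one of 0.30 (SE 0.125, adjusted p = 0.112, edgeR). *Orm1* passed with DESeq2 (adjusted p = 0.0212) and *Orm2* without *Rev-erbα-/-* ZT20 mouse 1 (adjusted p = 0.0458, edgeR), each in 1 of 16 alternatives with highest values of 0.647 and 0.890.

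The serum amyloid genes, *Lcn2*, *Hpx* and *Socs3* did not pass between the time points in *Rev-erbα-/-*. The log2 fold changes were -0.29 (SE 0.370, *Saa1*), -0.50 (SE 0.397, *Saa2*), 0.11 (SE 0.276, *Saa3*), -0.085 (SE 0.131, *Saa4*), -0.31 (SE 0.359, *Lcn2*), 0.0074 (SE 0.123, *Hpx*) and 0.49 (SE 0.373, *Socs3*), with adjusted p-values from 0.427 to 0.975 (edgeR). *Socs3* passed without *Rev-erbα-/-* ZT20 mouse 3, whose 5.07 CPM was the lowest of its group (log2 fold change 0.84, adjusted p = 0.00345, edgeR), and in none of the other 15 alternatives. Without mouse 1 of that group, *Socs3* stood at 0.069 on the log2 scale (adjusted p = 0.904, the highest of the 16 alternatives, edgeR). The median over the 10 genes was 0.0606, and that over all genes 0.0039. Both tested comparisons use the same 3 *Rev-erbα-/-* ZT20 mice.

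**Figure D4:**
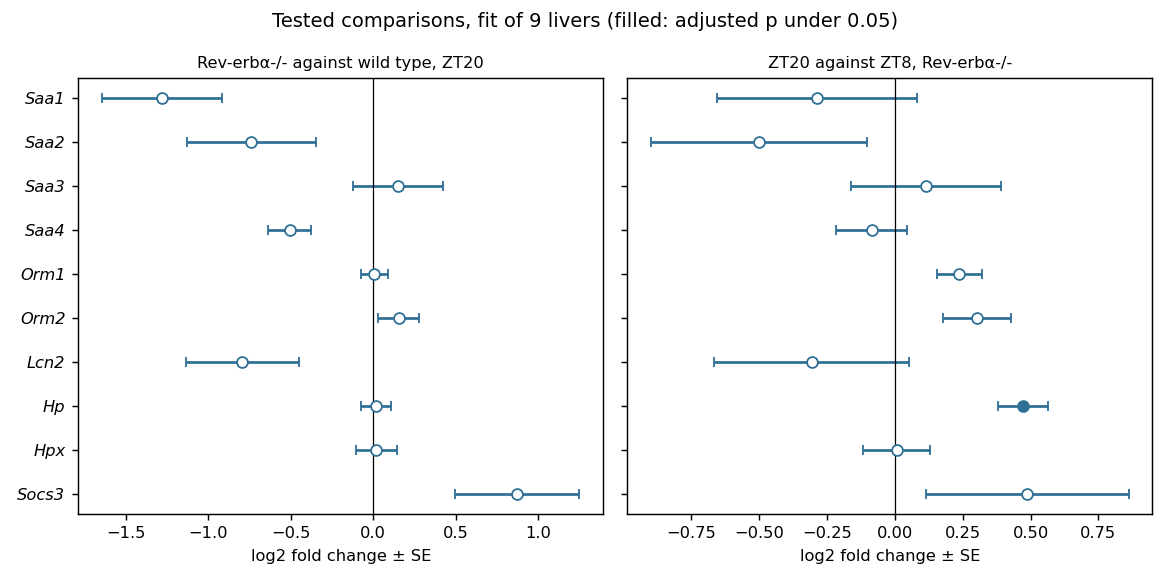
Log2 fold change with its standard error for each gene in the 2 tested comparisons, from the fit of 9 livers without wild-type ZT8, with filled points for an adjusted p under 0.05. *Hp* between the time points is the only filled point (0.47), and *Saa1* has the largest negative value between the genotypes at ZT20 (-1.28).

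The genes whose pattern was most like that of *Saa1* were found by the root mean square distance of log2(CPM + 0.5) values over the 12 livers, each gene centred on its own mean, among 14826 genes. These had at least 10 counts in at least 2 of the 12 livers, so a gene could enter through wild-type ZT8 mice 2 and 3 alone. A gene with the same level in all livers would be 2.71 away. The nearest were 4 of the other members, *Lcn2* (0.422), *Saa2* (0.81), *Orm2* (0.87) and *Saa3* (1.14). The members were chosen by the wild-type ZT8 values that dominate this profile, so their nearness is no separate result. *Hp* ranked 29, *Socs3* 52, *Orm1* 57 and *Hpx* 63, and *Saa4* ranked 1016. The 10 nearest genes outside the set were *Orm3* (1.55), *Crybb3* (1.57), *Prtn3* (1.61), *Fgl1* (1.69), *Clec2h* (1.75), *Slc13a5* (1.81), *Gm14097* (1.82), *Mt2* (1.84), *Dnaic1* (1.87) and *Capn11* (1.89). *Orm3*, a further orosomucoid gene, was at 1.19, 10.4 and 13.4 CPM in wild-type ZT8 mice 1 to 3 and between 0.378 and 4.28 in the other groups. *Fgl1*, which encodes the hepatocyte-secreted fibrinogen-like protein 1, was at 125.4, 1024 and 1581 CPM against 79.7 to 239.6. *Mt2*, a metallothionein that binds zinc, was at 1.55, 137.8 and 187.8 CPM against 0.0894 to 32.4, the highest of these being a *Rev-erbα-/-* mouse at ZT8. *Prtn3*, a protease gene of neutrophil granules, was at 0.0398, 4.23 and 5.13 CPM against 0.0447 to 0.245, where mouse 1 had 1 read and the 9 other livers between 1 and 5 reads, so that this range is within a few reads of 0. *Prtn3* thus entered the ranking only through the livers in which it was high. *Capn11* had 3 reads in mouse 1 and between 1 and 11 in the 9 other livers. *Clec2h* was at 0.199, 8.3 and 11.9 CPM in wild-type ZT8 mice 1 to 3. It was also at 4.56, 4.95 and 4.20 CPM in wild-type at ZT20, and between 0.042 and 0.167 in the *Rev-erbα-/-* livers. Its reads numbered 5 in mouse 1 and were under 3 in 5 of the 9 other livers. For *Mt2*, the lowest of the other livers had 2 reads.

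Other positive acute-phase proteins were examined as a list of 18 genes, chosen with earlier results of these data known. Of these, 9 had wild-type ZT8 mice 2 and 3 as the 2 highest of the 12 livers (8.95% of all genes), namely *Apcs*, *Itih3*, *Itih4*, *Lbp*, *Serpina3n*, *Lrg1*, *Il1rn*, *Steap4* and *Orm3*. *Apcs*, which encodes serum amyloid P component, held 137.7, 630.1 and 865.9 CPM in wild-type ZT8 mice 1 to 3 and between 140.3 and 223.5 in the other groups. *Lrg1*, which encodes leucine-rich alpha-2-glycoprotein, was at 284.8, 708.6 and 795.7 CPM, with at most 351.2 in the other groups. *Lbp*, which encodes the lipopolysaccharide-binding protein, was at 59.5, 116.7 and 133.8 CPM, with at most 97.3 elsewhere. C-reactive protein (*Crp*), a minor reactant in mice, was lowest in mice 2 and 3, with 355.7, 295.5 and 280.9 CPM. In the tested comparisons, 0 of the 18 passed at ZT20 by edgeR (3 at an unadjusted p-value below 0.05, 1 by DESeq2), beside 2.36% of all genes higher and 1.72% lower. With time in *Rev-erbα-/-*, 1 of the 18 rose, beside 9.32% of all genes. This was *Lbp* (log2 fold change 0.22, adjusted p = 0.0493, edgeR). The list's median log2 fold changes were 0.0644 and 0.0851.

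Of the 8 negative acute-phase proteins, transthyretin (*Ttr*) had mice 2 and 3 as the 2 lowest livers, with 6824, 5322 and 3684 CPM in wild-type ZT8 mice 1 to 3. Albumin (*Alb*) was at 52450, 38160 and 33730 CPM, and 36700 in 1 *Rev-erbα-/-* mouse at ZT8 was between the latter values. *Serpina6*, which encodes the corticosteroid-binding globulin of plasma, went the other way, with 309.5, 390.6 and 460.2 CPM. So did *Fetub*, *Ahsg* and *Trf*, at 1.21 and 1.35, 1.14 and 1.15, and 1.185 and 1.10 times mouse 1 in mice 2 and 3 (CPM + 0.5). On the same scale, *Apoa1* was at 1.02 and 0.983 and *Rbp4* at 0.914 and 0.868. The list thus had no common direction in these mice. *Serpina6* was also the gene of this list that was lower in *Rev-erbα-/-* at ZT20 (log2 fold change -0.82, adjusted p = 0.00563, edgeR), beside 1.72% of all genes. With time in *Rev-erbα-/-*, 2 of the 8 fell, beside 9.3% of all genes. These were *Serpina6* (-0.88, adjusted p = 0.00136) and *Ahsg*, which encodes fetuin A (-0.45, adjusted p = 0.0121, edgeR). The median over the list was -0.136 at ZT20 and 0.00698 between the time points.

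Of 22 genes listed under interleukin-6 and STAT3 signalling, 8 had mice 2 and 3 as the 2 highest livers (8.95% of all genes). They were the 2 lowest for 3 of the 22, beside 1207 of all 14488 genes. The list also holds genes of other cytokine pathways, and the inhibitors *Cish* and *Socs2* are not specific to interleukin-6 signalling. *Cish* held 3.42, 37.3 and 53.3 CPM in wild-type ZT8 mice 1 to 3 and between 3.40 and 21.8 in the other groups. *Socs2*, another inhibitor of the same family, was at 4.77, 33.8 and 57.9 CPM, but 35.4 in 1 *Rev-erbα-/-* mouse at ZT8 was above mouse 2. *Cebpd* (4.02, 7.42 and 10.1 CPM) and *Cebpb* (47.5, 83.9 and 90.1 CPM), which encode C/EBP factors, were highest in mice 2 and 3, whereas *Stat3* (121.2, 127.4 and 132.5 CPM) and the receptor gene *Il6ra* (64.5, 70.9 and 72.1 CPM) overlapped the other groups. *Bcl3* (23.3, 13.6 and 10.4 CPM) and *Pim1* (13.6, 9.11 and 7.01 CPM) were lowest in them.

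In the tested comparisons of this list, 1 gene was higher and 1 lower in *Rev-erbα-/-* at ZT20 (2.36% and 1.72% of all genes), *Pim1* (log2 fold change 0.46, adjusted p = 0.0481) and *Socs2* (-0.69, adjusted p = 0.0245, edgeR). With time in *Rev-erbα-/-*, 8 of 22 fell and 1 rose, beside 9.3% and 9.32% of all genes. *Socs2* had the lowest p-value among those that fell (-2.44, adjusted p = 4.97e-07), followed by the receptor genes *Lifr* (-1.36, adjusted p = 0.000497) and *Il1r1* (-0.83, adjusted p = 0.000548) and the kinase gene *Pim3* (-1.54, adjusted p = 0.00132, edgeR). The median over the list was -0.0988 at ZT20 and -0.191 between the time points. Of 7 genes for receptors and carriers of the member proteins, such as *Cd163* (the haptoglobin-haemoglobin receptor) and *Lrp1* (the hemopexin-haem receptor), 0 passed in either comparison by edgeR or DESeq2. At an unadjusted p-value below 0.05 (edgeR), 1 was higher and 1 lower at ZT20, and 1 was lower between the time points.

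**Figure D5:**
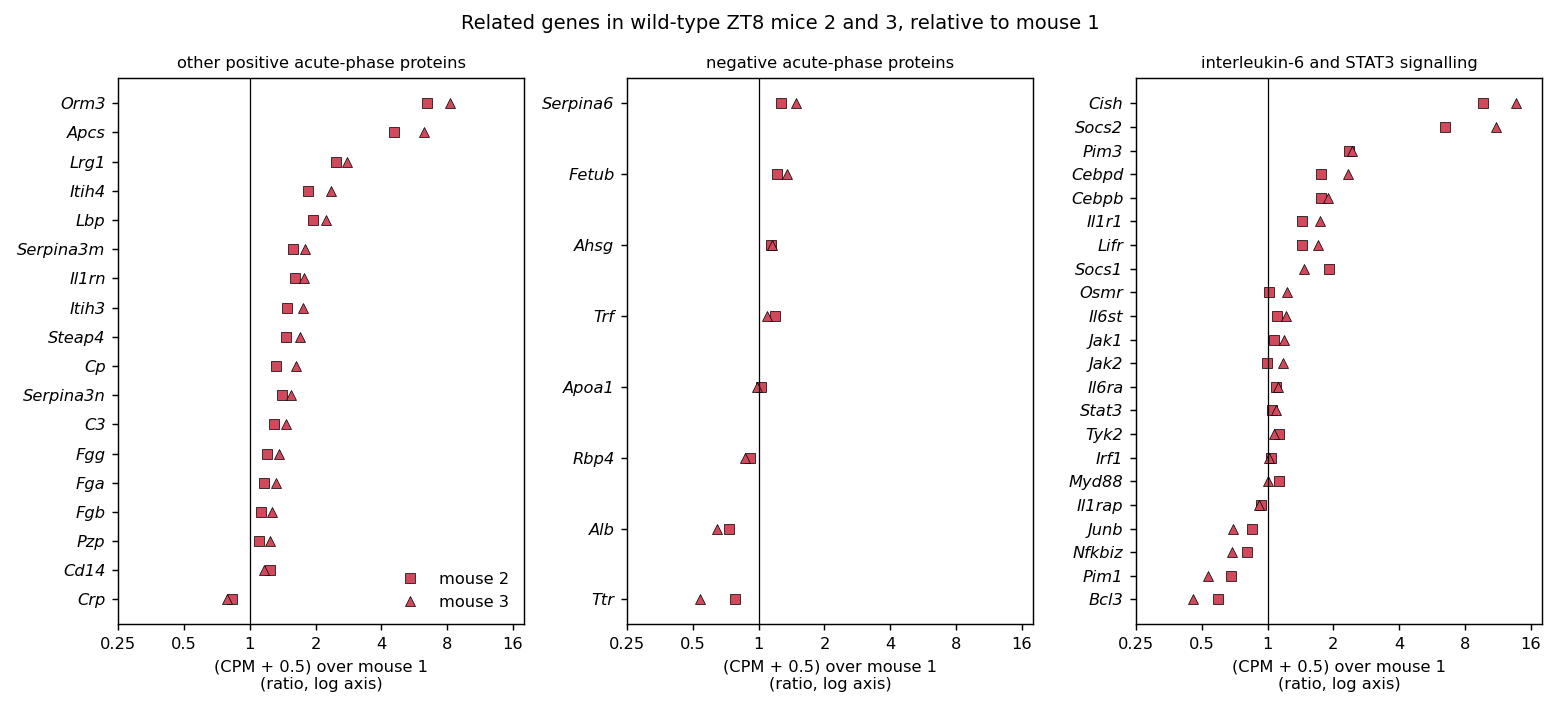
Level of the genes of 3 related lists in wild-type ZT8 mice 2 (squares) and 3 (triangles), as the ratio of CPM + 0.5 to mouse 1 of the same group (log axis). *Cish* is at 9.64 and 13.7 and *Apcs* at 4.56 and 6.27, whereas *Alb* is at 0.728 and 0.643 and *Bcl3* at 0.593 and 0.457.

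The livers showed the markers of their tissue, with a sum of 6 hepatocyte markers between 55340 and 101300 CPM, and 74700, 59740 and 55340 in wild-type ZT8 mice 1 to 3. The sum of 8 macrophage and Kupffer cell markers was 351.6, 458.1 and 556.1 CPM in these mice and between 303 and 419.5 in the other groups. Of the 8, 5 were highest in mice 2 and 3, beside 8.95% of all genes (*Adgre1*, counted under its older symbol *Emr1*, *Cd68*, *Vsig4*, *Csf1r* and *Cd5l*). In the tested comparisons, 3 of the 8 were higher in *Rev-erbα-/-* at ZT20 (2.36% of all genes) and 2 rose with time in *Rev-erbα-/-* (9.32% of all genes). The sum of 12 neutrophil markers was 3.62, 5.23 and 6.15 CPM in the wild-type ZT8 mice and between 1.93 and 12.8 elsewhere, with 9 of the 12 under 1 CPM in every liver and *Ly6g* at 0. Of 6 adipocyte markers, 5 were under 1 CPM in every liver, *Lep* at 0, and the sum in the wild-type ZT8 mice was all *Fabp4*, with 6.48, 8.27 and 9.60 CPM. It was between 5.72 and 8.11 CPM in the other groups, so that mice 2 and 3 were the 2 highest for *Fabp4* too. The sums of 6 lymphocyte markers (8.75, 8.37 and 9.20 CPM, elsewhere 7.64 to 36.6) and of 6 endothelial and stellate cell markers (228.6, 238.2 and 252.7, elsewhere 216.5 to 262.3) lay within the range of the other groups. The part of the macrophage markers and of *Fabp4* in the levels of the 10 genes was not tested. In a whole liver, more cells of a type and more RNA per cell cannot be told apart.

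Between 17641809 and 26060192 reads per liver were counted on genes, at which 3 counts correspond to 0.115 to 0.170 CPM. Alignments to more than 1 place amounted to 1.76, 2.89 and 3.28 per counted read in wild-type ZT8 mice 1 to 3 and to 1.24 to 2.72 in the other livers, so that mice 2 and 3 were highest here too, and the part of this in the levels was not tested. *Nr1d1* itself had 75.3 to 128.6 CPM in wild-type and 62.96 to 80.5 in *Rev-erbα-/-* livers at ZT8, and counts per symbol do not show which exons were read. *Arntl*, a clock gene that REV-ERBα represses, was at 0.448 to 0.795 CPM in the 3 wild-type and 22.7 to 25.7 in the 3 *Rev-erbα-/-* livers at ZT8. At ZT20 neither gene separated the genotypes, with *Arntl* at 43.0 to 45.2 CPM in wild-type and 41.1 to 45.1 in *Rev-erbα-/-* and *Nr1d1* at 1.86 to 2.28 and 2.09 to 3.57 CPM. The genotype of the 6 ZT20 livers, on which the tested genotype comparison rests, was thus taken from the labels without such a check.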

How the data were processed

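Liver RNA of 12 mice was analysed, 3 per group. The authors aligned reads of poly(A) libraries by TopHat (genome build mm10) and ran HTSeq-count in union mode, without strand and with an alignment quality of at least 10, on those that mapped uniquely. The deposited counts are whole numbers without normalization, for 38926 symbols, and 5 summary lines were left out of library sizes and tests. The authors tested differences with DESeq2 1.6.3.

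The members and the related lists were chosen with earlier results of these data known. Groups were taken from the labels. Counts were filtered with filterByExpr, scaled by TMM and fitted with edgeR 4.0.16 (glmQLFit, robust, glmQLFTest, R 4.3.3) over the 9 livers without wild-type ZT8, leaving 14267 genes, because the members were picked on that group. A fit of all 12 livers (14488 genes) gave the descriptive differences. P-values measure the spread between these mice only. No pair of replicates agreed within sampling noise. Genes outside the set were named by distance to *Saa1* (10 genes) and, per related list, by the lowest p-values among those past the threshold (up to 4). Genes of these lists described in wild-type ZT8 were chosen after their values were seen. Alternatives were all 12 or only 6 livers in the fit, DESeq2 1.42.0, size factors, no filter, at least 10 counts in every sample, a replicate block, other pseudocounts and each liver left out in turn.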

Additional observations from a re-analysis of the deposited data

How the results depend on the processing

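Between *Rev-erbα-/-* and wild-type at ZT20, 0 of the 10 genes passed by edgeR in the fit of 9 livers, with only the 6 livers compared, with size factors, with at least 10 counts in every sample and with the replicate block. DESeq2 called 2 (*Saa1* and *Saa4*), the fit of all 12 livers 1 (*Saa4*) and the fit without a filter 1 (*Saa4*). Leaving out 1 liver gave between 0 and 2. Between the time points in *Rev-erbα-/-*, *Hp* was called with 6 livers, size factors, no filter, at least 10 counts and the replicate block, alone in each. DESeq2 called 2 (*Orm1* and *Hp*), the fit of all 12 livers 0, and leaving out 1 liver gave between 1 and 2. Over all genes, leaving out 1 liver moved the calls between 287 and 677 at ZT20 (582 in the fit of 9 livers) and between 1652 and 2715 between the time points (2657).

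With 1 liver left out, some fold changes near 0 changed sign. At ZT20 the log2 values ran from -0.0249 to 0.0306 for *Orm1*, from -0.0359 to 0.0652 for *Hp* and from -0.068 to 0.13 for *Hpx*. Between the time points they ran from -0.0582 to 0.445 for *Saa3*, from -0.256 to 0.0508 for *Saa4*, from -0.525 to 0.0347 for *Lcn2* and from -0.0864 to 0.123 for *Hpx*. With 1 wild-type ZT8 mouse left out, the differences that include this group kept their direction. Each such fit still held mouse 2 or mouse 3, so this does not measure how firm the direction is. The log2 difference of *Rev-erbα-/-* to wild-type at ZT8 ran from -7.38 to -6.19 for *Saa1*, from -1.61 to -0.93 for *Orm1* and from -1.39 to -0.66 for *Hpx*, and that of ZT20 to ZT8 in wild-type from -1.63 to -0.83 for *Hp*. The count of 6 genes with a range of at least 4-fold was 6 under each pseudocount and library scaling. Of the 10 genes nearest to *Saa1*, 7 were shared with a pseudocount of 2 CPM and 10 with unscaled libraries.

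The replicate numbers do not pair the mice, since deviations of same-numbered livers correlated between -0.095 and 0.102, those of others between -0.073 and 0.083, and 0 livers correlated best with their own number in every other group. The replicate block left the calls among the members at 0 and 1. With 3 mice per group, an exact permutation test cannot go below p = 0.1.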
